A study of Homo sapiens with 60 samples.

Results

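The 10 genes described here encode heat-shock chaperones of the cytosol and the mitochondrion: HSPA1A, HSPA1B, HSPA8, HSPH1, DNAJB1, HSP90AA1, HSPB1, CRYAB, HSPD1 and HSPE1. They were taken by symbol from a table of 60675 gene identifiers, all 10 were found, and all 10 passed the filter on low counts that left 17764 genes for testing. Messenger RNA had been sequenced from A549 cells, an established human lung adenocarcinoma line, 24 h after treatment with herbal extracts. The 60 libraries form 25 groups. Each of 8 extracts was given at 20, 100 and 500 µg/mL. The multi-herb formulas Sibjeondaebo-tang, with 3 libraries at each dose, and Palmul-tang, with 2, were extracted with water. Poria Cocos, Atractylodis Rhizoma, Glycyrrhizae Radix (licorice root) and Panax Ginseng (n = 3 per dose) are single herbs extracted with ethanol, as are Angelicae Gigantis Radix and Paeoniae Radix (1 library per dose). The vehicle group (DMSO, n = 3) received no extract. The library labels give 0.1% DMSO and the series' design text 2%. That text also states that extracts with an IC20 (the dose that inhibits by 20%) under 500 µg/mL were given at lower doses, while the library labels carry the same 3 doses for every extract. All cells were of 1 line, and the titles of all 60 libraries, vehicle included, carry the same batch label, BatchC. Whether replicate libraries stem from cultures grown apart is not in the labels, and the spread behind each p-value may therefore be technical.

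Chaperones bind proteins that are unfolded or being folded and keep them from aggregating. HSP70 proteins (HSPA genes) work in cycles of ATP hydrolysis that are started by J-domain partners such as DNAJB1 and reset by nucleotide exchange factors such as HSPH1, and they pass clients on to HSP90 (HSP90AA1). Small heat-shock proteins such as HSPB1 and CRYAB hold unfolded proteins without ATP, and HSPD1 with its lid HSPE1 forms the folding chamber of the mitochondrial matrix. Many of these genes are induced by the transcription factor HSF1, which binds heat-shock elements, repeats of the pentamer NGAAN in alternating orientation. Tumour cells such as A549 commonly carry high levels of several of them without any heat shock.

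The promoter sequences of 9 of the 10 genes, 13 windows running 250 bases before to 50 bases after a transcription start, were available from RefSeq (build GRCh38.p14), and CRYAB had none in the table used. They are shown because such elements are the recognised site of the factor that links these genes. A longer element of alternating units (GAANNTTCNNGAA or TTCNNGAANNTTC, which are each other's reverse complement, so both strands were read) was found in 3 of the 13 windows, those of HSPA8, HSP90AA1 and HSPD1, and in 171 of 34943 windows of all genes, or 0.489%. The shorter element (GAANNTTC or TTCNNGAA, each the same on both strands, and each contained in the longer one) was found in 8 of the 13 windows, covering 7 of the 9 genes, and in 13.5% of all windows. The windows of HSPH1 and HSPE1 held neither spelling. The HSPD1 match printed below nevertheless lies inside the annotated span of HSPE1, which starts at chr2:197499994, and outside the HSPE1 window. In the following lines, capitals mark the match (overlapping matches are joined) and the strand is that of the gene.
HSPA8, chr11:123062345-123062374, minus strand: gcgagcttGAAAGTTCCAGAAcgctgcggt
HSPA8, chr11:123062170-123062199, minus strand: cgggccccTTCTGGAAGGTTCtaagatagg
HSP90AA1, chr14:102087111-102087140, minus strand: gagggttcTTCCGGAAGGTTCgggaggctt
HSPD1, chr2:197500061-197500090, minus strand: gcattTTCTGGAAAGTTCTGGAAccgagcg
DNAJB1, chr19:14518456-14518485, minus strand: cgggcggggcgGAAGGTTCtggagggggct
HSPB1, chr7:76302480-76302509, plus strand: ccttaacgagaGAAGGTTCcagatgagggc

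HSPA1A and HSPA1B encode nearly the same HSP70 protein from neighbouring genes on chromosome 6, and their upstream sequences are nearly the same as well. Of 171 aligned bases, 164 were identical (95.9%) and 7 differed. The shorter element, in capitals, is shared.
HSPA1A, chr6:31815293-31815463, plus strand: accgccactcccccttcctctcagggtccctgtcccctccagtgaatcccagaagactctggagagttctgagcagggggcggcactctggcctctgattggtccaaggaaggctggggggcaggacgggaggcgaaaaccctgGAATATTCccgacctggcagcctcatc
HSPA1B, chr6:31827489-31827659, plus strand: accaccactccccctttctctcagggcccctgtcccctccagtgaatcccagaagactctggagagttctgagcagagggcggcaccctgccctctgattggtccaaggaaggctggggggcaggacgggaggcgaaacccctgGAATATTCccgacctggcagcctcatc
A match is a description of the letters and was not tied to binding of any factor in these cells.

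Library totals ran from 18602484 to 29764358 counts, and counts of mitochondrially encoded genes took 14.5% to 25.9% of them. Of the 10 lung epithelial and A549 markers, KRT8 had the highest median at 3643 CPM, followed by KRT18 (2400 CPM), AKR1C2 (2001 CPM) and ALDH3A1 (1032 CPM). KRT19 (255 CPM), CDH1 (166 CPM) and EPCAM (18.8 CPM) were lower. NKX2-1 and SFTPB had medians of only 0.923 and 0.432 CPM. The alveolar surfactant gene SFTPC was at 0 in 10 libraries and at most 0.209 CPM. Of the leukocyte markers, PTPRC, CD3E and LYZ were at 0 in 38 to 54 libraries and reached at most 0.0866 CPM, while CD14 was at 0 in none, with 1.65 to 3.98 CPM. In the Glycyrrhizae libraries at 500 µg/mL the 10 lung epithelial and A549 markers summed to 7906 to 8163 CPM, against 9484 to 9942 CPM at 20 µg/mL, and the 5 fibroblast markers to 10.4 to 10.9 CPM against 15.4 to 17.7 CPM. The 4 endothelial markers, carried mostly by KDR, summed to 12.5 to 13.0 CPM at 500 µg/mL against 21.1 to 22.05 CPM at 20 µg/mL, the 3 keratinocyte or squamous markers to 26.4 to 28.5 CPM against 33.5 to 35.9 CPM, and the 3 neuronal or neuroendocrine markers to 2.53 to 2.94 CPM against 3.02 to 3.71 CPM. The leukocyte sum was higher, at 3.33 to 3.98 CPM against 2.39 to 2.91 CPM. The part of these differences in the results was not tested. CPM are relative to each library's total and do not give cell numbers. In bulk RNA, fewer cells that express a gene and less of its RNA per cell cannot be told apart.

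Levels were given as CPM, a gene's counts relative to the scaled total of its library, and differences as log2 changes from edgeR's quasi-likelihood test, fitted to all 60 libraries with p-values adjusted over all 17764 genes by the Benjamini-Hochberg method. A gene was called where the adjusted p was under 0.05. For levels per kilobase, a gene's length was the union of all its annotated exons, from 1.63 kb for HSPB1 to 8.39 kb for HSPH1. The transcripts present may be shorter, so the order between genes is approximate. Per kilobase of exon, the highest median over the 60 libraries was that of HSPB1 at 415 CPM per kb, followed by HSPA8 at 358, HSP90AA1 at 289 and HSPD1 at 224 CPM per kb. HSPE1 had 121 and HSPA1A 105 CPM per kb. The heat-inducible HSP70 genes therefore lay below the constitutive HSPA8, and HSPA1B reached 56.0, DNAJB1 43.0 and HSPH1 13.2 CPM per kb. CRYAB, the alpha-B crystallin best known from lens and muscle, was the lowest at 2.90 CPM per kb and a median of 8.79 CPM, or 119 to 297 counts per library.

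**Figure D1:**
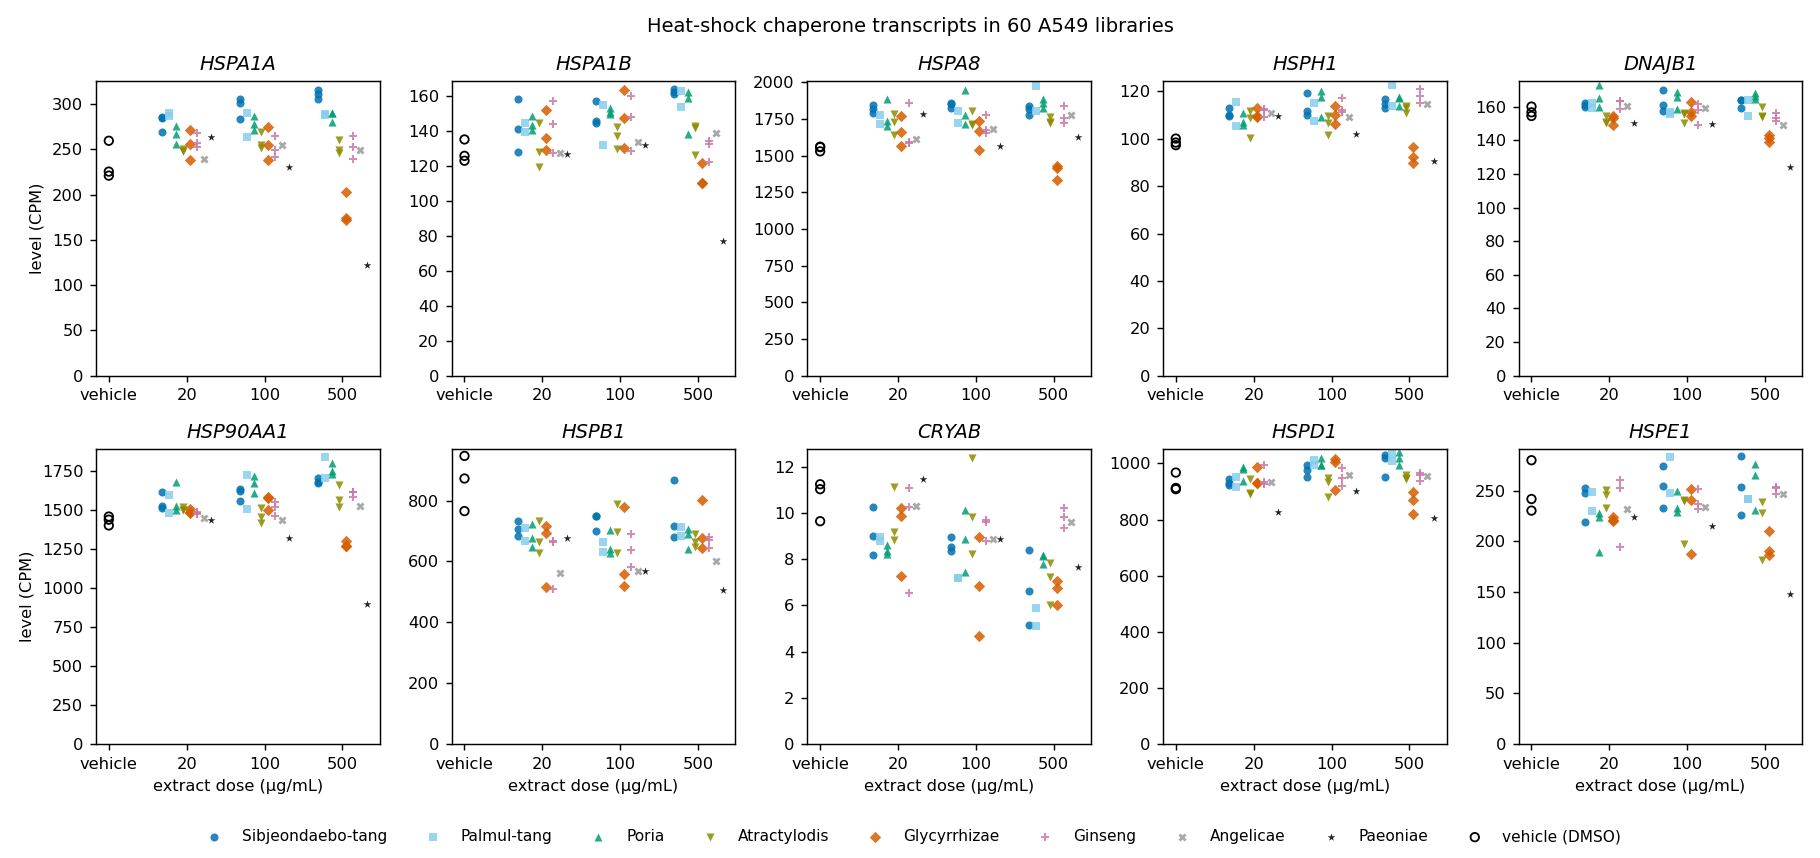
Levels in CPM (vertical axes, from 0) of the 10 chaperone genes in all 60 libraries, 1 panel per gene, by dose of extract (horizontal axes, vehicle at the left). Each point is 1 library and colours and shapes give the extract. HSPA1A lies between 172 and 203 CPM in the 3 Glycyrrhizae libraries and at 122 CPM in the 1 Paeoniae library at 500 µg/mL, below the other 56 libraries.

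Over all 25 groups, those of 1 library included, the ratio of the highest to the lowest group mean ran from 1.27 for HSPD1 to 2.55 for HSPA1A, whose lowest group is the single Paeoniae library at 500 µg/mL. Glycyrrhizae at 500 µg/mL had the lowest mean of the 19 replicated groups for 8 of the 10 genes. The Paeoniae library at 500 µg/mL was the lowest of all 60 libraries for 7 of the 10. For how many of all genes this group or this library was the lowest was not counted. These counts therefore do not set the members apart from other genes. Among the replicated groups the highest HSPA1A mean was 311 ± 5.33 CPM with Sibjeondaebo-tang at 500 µg/mL and the lowest 183 ± 17.4 CPM with Glycyrrhizae at 500 µg/mL (SD, n = 3 each). Ordered by their means, 16 of the 18 neighbouring pairs of groups lay closer together for HSPA1A than the larger of their SDs. The step from Glycyrrhizae at 500 µg/mL to the next lowest group, the vehicle at 235 CPM, was 2.49 times the larger SD. For HSPE1, 18 of 18 neighbouring pairs lay within the larger SD, so neighbours in its order did not differ beyond their spread.

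Between 20 and 500 µg/mL of Glycyrrhizae, 8 of the 10 chaperone transcripts fell and none rose. Over all genes, 18.4% were called lower and 18.5% higher in this comparison, 37% in all. The inducible HSP70 gene HSPA1A fell most among the well expressed members, by 28.3%, while HSPA8, HSPH1 and HSP90AA1 fell by 14.3% to 16.2%. The median log2 change was -0.24 over the 10 genes and 0.00 over all genes tested. The high-dose libraries lay below every low-dose library for 9 of the 10 genes, and so they did for 22.2% of all genes.

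HSPA1A, the main heat-inducible HSP70, had 203, 174 and 172 CPM in the 3 libraries at 500 µg/mL of Glycyrrhizae, against 272, 238 and 256 CPM at 20 µg/mL. The groups did not overlap, and the log2 change was -0.48 ± 0.06 (SE; adjusted p = 1.9e-09, edgeR). HSPA1B, whose coding sequence differs little from that of HSPA1A, had 122, 110.4 and 110.5 CPM at 500 µg/mL, against 152, 136 and 129 CPM at 20 µg/mL, with a log2 change of -0.29 ± 0.08 (adjusted p = 0.00445, edgeR). The HSPA1B call was lost without replicate 1 of the low dose (adjusted p = 0.052). The split of reads between these copies is uncertain. Summed before the test, the pair had 325, 285 and 282 CPM at 500 µg/mL and 424, 374 and 385 CPM at 20 µg/mL, a log2 change of -0.41 ± 0.06 (adjusted p = 1.07e-07, edgeR).

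HSPA8, HSPH1 and DNAJB1 fell as well, with smaller log2 changes than HSPA1A. HSPA8, the constitutive HSP70 that also uncoats clathrin vesicles, had 1429, 1336 and 1416 CPM at 500 µg/mL of Glycyrrhizae, against 1661, 1561 and 1767 CPM at 20 µg/mL, without overlap (log2 change -0.25 ± 0.05, adjusted p = 0.000119, edgeR). HSPH1, the HSP110 exchange factor, had 89.7, 92.4 and 96.5 CPM at 500 µg/mL and 109, 109.7 and 113 CPM at 20 µg/mL (log2 change -0.25 ± 0.04, adjusted p = 4.11e-06, edgeR). DNAJB1, the J-domain partner that delivers clients to HSP70, had 139, 142 and 143 CPM at 500 µg/mL and 155, 154 and 149 CPM at 20 µg/mL. Its change of -0.11 ± 0.03 was called (adjusted p = 0.00939, edgeR) although small, since its libraries lay close together. The call was lost when only the 6 libraries compared were fitted (adjusted p = 0.0648) and without the filter on low counts (0.161).

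HSP90AA1, the stress-inducible cytosolic HSP90, had 1266, 1266 and 1299 CPM at 500 µg/mL of Glycyrrhizae, against 1486, 1506 and 1479 CPM at 20 µg/mL. The groups did not overlap, and the log2 change was -0.22 ± 0.04 (adjusted p = 6.04e-05, edgeR). Its constitutive sister HSP90AB1 was also lower, by a log2 change of -0.15 ± 0.03 (adjusted p = 0.000209, edgeR).

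Of the small heat-shock proteins, CRYAB fell and HSPB1 was not called. CRYAB had 7.05, 6.76 and 6.03 CPM at 500 µg/mL of Glycyrrhizae, against 10.2, 7.26 and 9.88 CPM at 20 µg/mL. The groups did not overlap, and the log2 change was -0.47 ± 0.17 (adjusted p = 0.0238, edgeR). This call rests on single libraries at a low count: without replicate 1 of the low dose the adjusted p was 0.113, without replicate 3 of the low dose 0.0947 and without replicate 3 of the high dose 0.0973. HSPB1, the abundant small heat-shock protein that also binds actin, had 800.2, 676 and 644 CPM at 500 µg/mL and 716, 517 and 693 CPM at 20 µg/mL. The groups overlapped, and the change of 0.14 ± 0.11 had a 95% interval of -0.09 to 0.37 (adjusted p = 0.362, edgeR).

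The mitochondrial pair gave 1 call. HSPD1 had 821, 870.1 and 900.0 CPM at 500 µg/mL of Glycyrrhizae, against 929, 988 and 930.3 CPM at 20 µg/mL, a log2 change of -0.14 ± 0.04 (adjusted p = 0.00901, edgeR). The call was lost without high-dose replicate 1 (adjusted p = 0.0932), without low-dose replicate 2 (0.085), when only the 6 libraries were fitted (0.0725) and without the filter (0.06). HSPE1, its co-chaperonin, had 191, 187 and 210.2 CPM at 500 µg/mL and 224, 220.4 and 221 CPM at 20 µg/mL. The groups did not overlap, but the change of -0.18 ± 0.10 was not called (adjusted p = 0.179, edgeR), and it passed when only the 6 libraries were fitted (0.0203) or without the filter (0.00637). HSPD1 and HSPE1 lie head to head on chromosome 2 with overlapping annotated spans, and the strand setting of the counting is not given, so reads of their overlap may be shared.

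At 100 µg/mL none of the 10 genes was called against 20 µg/mL of Glycyrrhizae, where 0.788% of all genes were. HSPA1A had 275, 239 and 255 CPM at 100 µg/mL, overlapping the low-dose libraries, and its log2 change of 0.01 had a 95% interval of -0.11 to 0.12. HSP90AA1 had 1502, 1577 and 1584 CPM at 100 µg/mL, a change of 0.06 ± 0.04 (adjusted p = 0.87, edgeR). CRYAB, with 8.94, 4.69 and 6.83 CPM, had a change of -0.42 ± 0.17 (adjusted p = 0.404, edgeR), close in size to that at 500 µg/mL. Without the filter on low counts CRYAB was called (adjusted p = 0.00763, edgeR). The other 7 genes had log2 changes of -0.05 to 0.08. At an unadjusted p under 0.05, 1 of the 10 genes passed in this comparison, where 1346 of all 17764 genes did. DESeq2 called 0 of the 10.

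**Figure D2:**
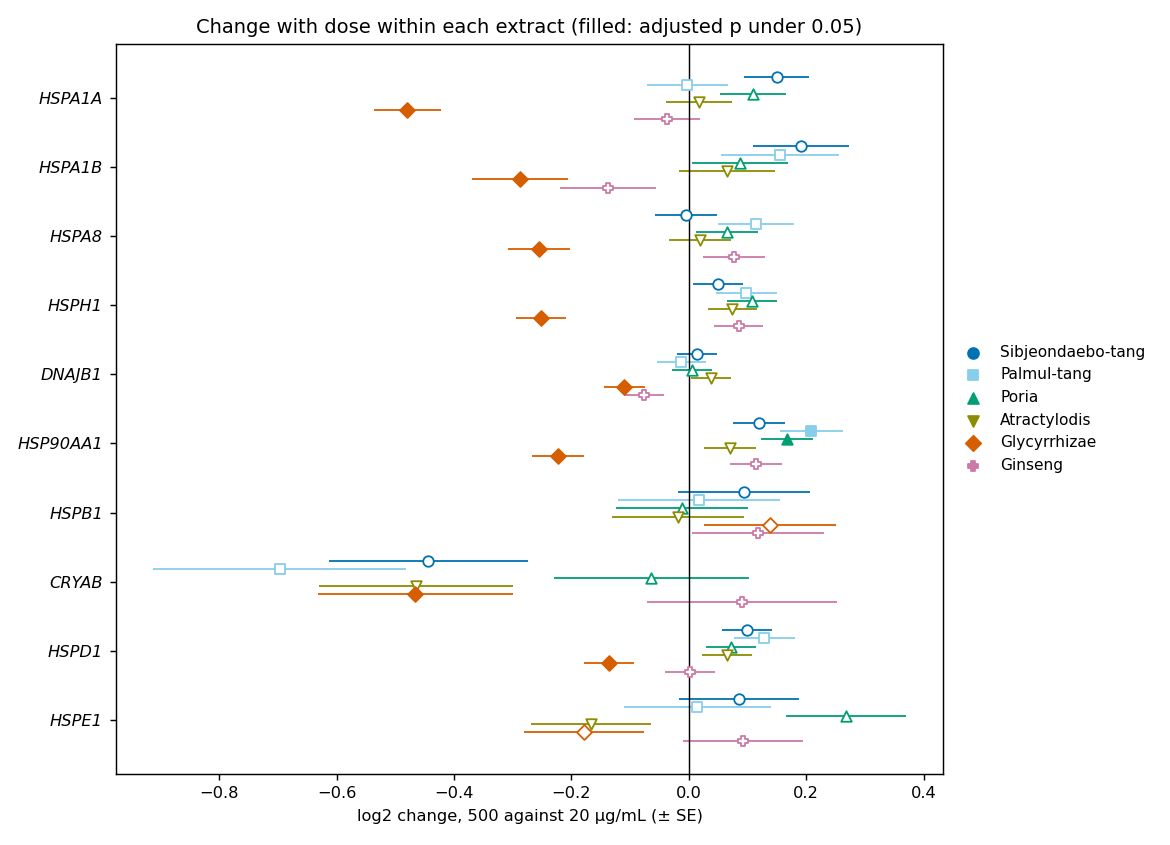
Log2 change between 500 and 20 µg/mL (horizontal axis) of each chaperone gene (rows) in the 6 replicated extracts, with bars of 1 SE on either side. Filled symbols passed an adjusted p under 0.05. Glycyrrhizae has 8 filled symbols at -0.11 to -0.48, and the other filled symbols are HSP90AA1 with Palmul-tang at 0.21 and with Poria at 0.17.

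The other 5 replicated extracts gave 2 calls among the 10 genes between 20 and 500 µg/mL, and both were rises of HSP90AA1. With Palmul-tang HSP90AA1 had 1707 and 1841 CPM at 500 µg/mL, against 1478 and 1592 CPM at 20 µg/mL, a log2 change of 0.21 ± 0.05 (adjusted p = 0.0258, edgeR). Over all genes 1.29% were called higher with Palmul-tang. The call was lost without high-dose replicate 3 (adjusted p = 0.415) or low-dose replicate 2 (0.415), which leave 1 library in a group that is then assumed to vary like the others. It was also lost without the filter on low counts (0.11).

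With Poria HSP90AA1 had 1802, 1748 and 1729 CPM at 500 µg/mL, against 1678, 1524 and 1499 CPM at 20 µg/mL, a log2 change of 0.17 ± 0.04 (adjusted p = 0.0352, edgeR), where 1.06% of all genes were called higher. Leaving out any of 5 of the 6 libraries ended this call, with adjusted p-values of 0.0816 to 0.224, among them low-dose replicate 3, a library with 28101 genes detected, more than any other. Fitting only the 6 libraries gave an adjusted p of 0.194, and the fit without the filter on low counts gave 0.218. Without the filter HSPE1 was called with Poria instead (log2 change 0.26, adjusted p = 0.000789, edgeR).

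With Sibjeondaebo-tang, Atractylodis and Ginseng no member was called in edgeR's test, where 3.78%, 0.208% and 1.2% of all genes were called. At an unadjusted p under 0.05, 5, 1 and 2 of the 10 genes passed with these extracts. Over all 17764 genes 2662, 1217 and 1713 did. DESeq2 called 0 of the 10 with each. HSPA1A with Sibjeondaebo-tang had 316, 305 and 311 CPM at 500 µg/mL and 269.6, 286 and 285 CPM at 20 µg/mL. The groups did not overlap, as in 10.1% of all genes with this extract higher at 500 µg/mL, and the log2 change was 0.15 with a 95% interval of 0.04 to 0.26 (adjusted p = 0.146, edgeR). With Ginseng HSPA1A had a change of -0.04 with an interval of -0.15 to 0.08, and with Atractylodis one of 0.02 with an interval of -0.10 to 0.13.

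CRYAB was lower at 500 than at 20 µg/mL by a similar amount in 3 further extracts, none of which passed. The log2 change was -0.70 ± 0.22 with Palmul-tang (adjusted p = 0.0844), -0.46 ± 0.16 with Atractylodis (0.453) and -0.44 ± 0.17 with Sibjeondaebo-tang (0.153), all by edgeR. With Poria it was -0.06 ± 0.17 and with Ginseng 0.09 ± 0.16. CRYAB with Palmul-tang had 5.88 and 5.11 CPM at 500 µg/mL and 8.97 and 8.79 CPM at 20 µg/mL, without overlap, and 23.4% of all genes lay lower without overlap in this comparison of 2 libraries with 2. Here DESeq2 (adjusted p = 0.0405) and a fit of only these 4 libraries (0.00715) did call it. Without the filter on low counts edgeR called CRYAB with Palmul-tang (adjusted p = 0.000167), Atractylodis (0.00361) and Sibjeondaebo-tang (0.00391).

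At 100 against 20 µg/mL none of the 10 genes was called in any of these 5 extracts. The share of all genes called was 0.0788% with Sibjeondaebo-tang and 0% with Palmul-tang, Poria, Atractylodis and Ginseng. At an unadjusted p under 0.05, 1 member passed with Poria, where 766 of all 17764 genes did. With Sibjeondaebo-tang, Palmul-tang, Atractylodis and Ginseng 0 members passed, beside 1023, 863, 445 and 554 of all genes. DESeq2 called 0 members in each.

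Whether the change between 20 and 500 µg/mL differed between extracts was tested directly, as the difference of the changes in the same model. All 5 of these comparisons use the same 6 Glycyrrhizae libraries and are not independent. The Glycyrrhizae change was lower than that of Ginseng for 4 of the 10 genes (11.3% of all genes were called lower), than that of Sibjeondaebo-tang for 6 (13.1%), than that of Palmul-tang for 6 (11.1%), than that of Poria for 7 (12.6%) and than that of Atractylodis for 7 (12.9%). It was higher for none of the 10 in any of the 5. Ginseng carries the same set code as Glycyrrhizae. Set code here means the leading part of the sample code in each library's description, and the labels do not say what it marks. HSPA1A, HSPA8, HSPH1 and HSP90AA1 were called in all 5. For HSPA1A the differences ran from -0.44 ± 0.08 against Ginseng to -0.63 ± 0.08 against Sibjeondaebo-tang. For HSP90AA1 they ran from -0.29 ± 0.06 against Atractylodis to -0.43 ± 0.07 against Palmul-tang.

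HSPB1 and CRYAB were called in none of the 5 comparisons. The differences of CRYAB ran from -0.56 ± 0.23 against Ginseng to 0.23 ± 0.27 against Palmul-tang, a wide range for a gene with few counts. In edgeR's test DNAJB1 was called against Atractylodis only (-0.15 ± 0.05, adjusted p = 0.0216). This call was lost in 5 of the 12 fits that left out 1 library, without the filter on low counts (adjusted p = 0.258) and when only the compared groups were fitted (0.0596). DESeq2 also called DNAJB1 against Sibjeondaebo-tang (-0.12, adjusted p = 0.0419), where edgeR gave 0.058. By edgeR HSPE1 was called against Poria only (-0.45 ± 0.14, adjusted p = 0.0195) and lost in 3 of 12. Between Sibjeondaebo-tang and Palmul-tang, and between Poria and Atractylodis, 0 members were called by edgeR or by DESeq2, where 0% and 0.0732% of all genes were called. At an unadjusted p under 0.05, 0 and 1 of the 10 genes passed, where 904 and 1293 of all 17764 genes did. The member that passed was HSPE1, whose change with Poria exceeded that with Atractylodis by 0.43 ± 0.14 (adjusted p = 0.417, edgeR).

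**Figure D3:**
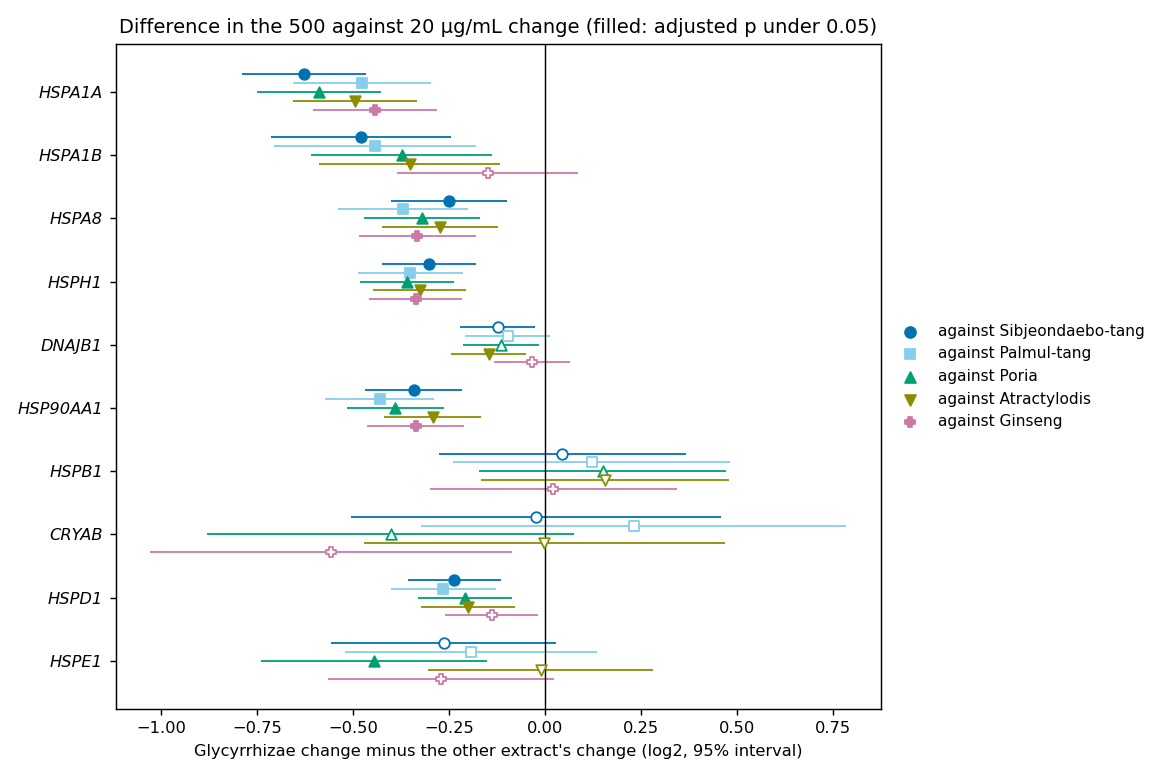
Difference between the Glycyrrhizae change and that of each of 5 other extracts (horizontal axis, log2, 500 against 20 µg/mL) for each chaperone gene, with 95% intervals. Filled symbols passed an adjusted p under 0.05. HSPA1A lies between -0.44 and -0.63 and is filled against all 5 extracts, whereas HSPB1 and CRYAB have no filled symbol.

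Against the vehicle, members called higher at 500 µg/mL were HSP70, HSP110, HSP90 and HSPD1 genes, and with Glycyrrhizae none was called higher. The genes called lower with the other 5 extracts were the small heat-shock proteins HSPB1 and CRYAB. All these comparisons share the same 3 vehicle libraries, which also carry a set code of their own. The effect of an extract and any effect of what that code marks cannot be told apart. Of the 10 genes, 5 were called higher and 1 lower with Sibjeondaebo-tang (9.04% and 6.12% of all genes), 6 and 1 with Palmul-tang (12.2% and 10%), and 6 and 1 with Poria (9.89% and 6.41%). With Atractylodis 3 were higher and 2 lower (13.8% and 12.3%), and with Ginseng 3 and 1 (15.2% and 13.7%). With Glycyrrhizae none was higher and 8 were lower (23.3% and 23.5% of all genes). The number called with Glycyrrhizae was 5 without its high-dose replicate 2 or without vehicle replicate 2, and that with Poria was 4 without its high-dose replicate 2.

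HSPA8, HSPH1 and HSP90AA1 were higher than in the vehicle with all 5 extracts other than Glycyrrhizae. HSPH1 averaged 118 ± 2.87 CPM with Ginseng at 500 µg/mL (SD, n = 3), against 98.6 ± 1.4 CPM in the vehicle (SD, n = 3). The log2 change was 0.26 ± 0.04 (adjusted p = 8.95e-06, edgeR). HSPA1A was higher with Sibjeondaebo-tang (0.40 ± 0.06, adjusted p = 2.45e-06), Palmul-tang (0.29 ± 0.06, adjusted p = 0.00057) and Poria (0.29 ± 0.06, adjusted p = 0.000326), and HSPA1B was called with the same 3 extracts. The HSPA1B call with Poria held in 2 of the 6 fits that left out 1 library. It was lost without vehicle replicate 2 or 3 and without high-dose replicate 1 or 2, with adjusted p-values of up to 0.113, and the call with Palmul-tang was lost without high-dose replicate 3 (0.136). With Atractylodis the call of HSPA8 was lost without vehicle replicate 2 (0.0606) or high-dose replicate 1 (0.0524), and that of HSP90AA1 without vehicle replicate 3 (0.0534) or high-dose replicate 2 (0.122). In edgeR's test HSPD1 was called higher with Palmul-tang and Poria only. Both calls were lost without the filter on low counts (adjusted p = 0.128 and 0.165, edgeR). They were also lost when only the compared groups were fitted (0.11 and 0.0788). Without vehicle replicate 1 they were lost as well (0.11 and 0.117), and the Poria call held in 2 of the 6 fits that left out 1 library.

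At 20 µg/mL HSPH1 was called higher than in the vehicle with all 6 replicated extracts in the fit of all libraries with the filter on low counts, by log2 changes of 0.12 to 0.18. The calls with Sibjeondaebo-tang, Glycyrrhizae and Ginseng held in every alternative run. Those with Palmul-tang, Poria and Atractylodis were lost without the filter (adjusted p = 0.07, 0.113 and 0.166) and when only the compared groups were fitted (0.0581, 0.0804 and 0.111). Of the fits that left out 1 library, HSPH1 was called in 4 of 5 with Palmul-tang, 3 of 6 with Poria and 1 of 6 with Atractylodis, where only the fit without low-dose replicate 2 kept it. The members called at 20 µg/mL were 4 higher and 0 lower with Sibjeondaebo-tang (12.6% and 11.5% of all genes), 3 and 0 with Palmul-tang (8.73% and 6.72%), 4 and 1 with Poria (10.9% and 8.65%), 2 and 1 with Atractylodis (12.7% and 11%), 1 and 1 with Glycyrrhizae (14.6% and 14.2%), and 1 and 1 with Ginseng (14.6% and 14.2%). Single libraries moved some of these counts. With Poria the number called in either direction was 1 without its low-dose replicate 1, 2 without vehicle replicate 1 or 3, and 3 without vehicle replicate 2 or low-dose replicate 3. With Atractylodis it was 0 or 1 whichever of the 6 libraries was left out, and with Palmul-tang it was 1 without low-dose replicate 3.

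HSPB1 was highest in the vehicle. Its 3 vehicle libraries had 947, 872 and 765 CPM, while the Poria libraries at 500 µg/mL had 705, 639 and 689.6 CPM, a log2 change of -0.35 ± 0.11 (adjusted p = 0.028, edgeR). At 500 µg/mL HSPB1 was called lower with Poria, Atractylodis (-0.37 ± 0.11), Ginseng (-0.37 ± 0.11) and Glycyrrhizae (-0.29 ± 0.11), and the values for Sibjeondaebo-tang (-0.19 ± 0.11) and Palmul-tang (-0.31 ± 0.13) did not pass. The vehicle libraries spread widely, from 765 to 947 CPM, and of these 4 calls each was lost in at least 1 fit that left out a library. CRYAB, at 11.0, 11.2 and 9.64 CPM in the vehicle, was called lower with Palmul-tang (-0.96 ± 0.20), Glycyrrhizae (-0.69 ± 0.17), Sibjeondaebo-tang (-0.66 ± 0.17) and Atractylodis (-0.60 ± 0.17).

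With Glycyrrhizae at 500 µg/mL the genes lower than in the vehicle were HSPA1A (-0.36 ± 0.06), HSPA8 (-0.15 ± 0.05), DNAJB1 (-0.15 ± 0.03), HSP90AA1 (-0.16 ± 0.04), HSPB1, HSPD1 (-0.11 ± 0.04), HSPE1 (-0.36 ± 0.10) and CRYAB. HSPA1A had 203, 174 and 172 CPM with Glycyrrhizae, against 259.6, 226 and 221 CPM in the vehicle, without overlap. HSPA1B (-0.17 ± 0.08, adjusted p = 0.0966) and HSPH1 (-0.09 ± 0.04, adjusted p = 0.096) did not pass in edgeR's test. The HSPD1 call was lost without high-dose replicate 1 (adjusted p = 0.227) or 2 (0.077) and without vehicle replicate 2 (0.217) or 3 (0.0519), and that of HSPA8 without high-dose replicate 2 (0.115) or vehicle replicate 3 (0.0507). The HSPE1 call was lost without vehicle replicate 2 (0.0514).

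The Paeoniae and Angelicae series have 1 library per dose, so they are described without a test, as log2 ratios of CPM plus 1. With Paeoniae all 10 genes had less at 500 than at 20 µg/mL. HSPA1A had 122 CPM at 500 µg/mL, 230.3 CPM at 100 µg/mL and 263 CPM at 20 µg/mL, and the ratio of 500 to 20 µg/mL was 0.465. HSP90AA1 had 893 CPM at 500 µg/mL and 1436 CPM at 20 µg/mL, HSPA1B 77.3 and 127 CPM, and HSPE1 148 and 224 CPM. These 4 genes were past a ratio of 1.5-fold lower, as were 9.65% of all genes, and 19.3% were past it in either direction. The median log2 ratio was -0.47 over the 10 genes and 0.00 over all genes.

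The ratios differed in size between members. HSPA8 had 1623 CPM at 500 µg/mL and 1782 CPM at 20 µg/mL, a log2 ratio of -0.13, and HSPD1 had 807 and 826 CPM, a ratio of -0.03, beside -1.11 for HSPA1A. HSPH1 had 90.7 CPM at 500 µg/mL and 109.7 CPM at 20 µg/mL, DNAJB1 124 and 151 CPM, HSPB1 506 and 677 CPM, and CRYAB 7.67 and 11.5 CPM. The Paeoniae libraries had mitochondrially encoded shares of 24.3% at 500 µg/mL, 19.8% at 100 µg/mL and 25.9% at 20 µg/mL. The share at 20 µg/mL is the highest of the 60 libraries, and its part in these values was not tested. With Angelicae none of the 10 genes was past 1.5-fold at 500 µg/mL, where 0.771% of all genes were, and the log2 ratios ran from -0.10 for DNAJB1 to 0.14 for HSPA8. HSPA1A there had 249.7 CPM at 500 µg/mL, 255 CPM at 100 µg/mL and 239.5 CPM at 20 µg/mL.

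Beyond the 10 members, 88 other listed genes of the chaperone and heat-shock system were matched to an identifier, and 84 were tested. HSPB11 was also listed but matched no identifier and is not counted. Between 20 and 500 µg/mL of Glycyrrhizae 18 rose and 24 fell, beside 18.5% of all genes called higher and 18.4% lower in this comparison, and the median log2 change was -0.04 beside 0.00 over all genes. The same shares are the background for each list of these genes. Among the other HSP70 genes 3 of 10 rose and 2 fell. HSPA13, a microsomal HSP70 relative, averaged 51.8 CPM at 500 µg/mL and 24.0 CPM at 20 µg/mL (log2 change 1.11 ± 0.06, adjusted p = 1.77e-19). HSPA9, the mitochondrial HSP70 called mortalin, rose (0.40 ± 0.03, adjusted p = 1.24e-13), as did HSPA12A (0.59 ± 0.07). HSPA2, known for its role in spermatogenesis, fell (-0.66 ± 0.06), and so did HSPA4, another HSP110-type exchange factor (-0.18 ± 0.05).

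Of the 14 other J-domain genes 2 rose and 6 fell, where 18.5% and 18.4% of all genes did. DNAJA1 averaged 173 CPM at 500 µg/mL of Glycyrrhizae and 253 CPM at 20 µg/mL (log2 change -0.55 ± 0.05, adjusted p = 3.57e-13), and DNAJB4 changed by -0.63 ± 0.05. DNAJA3, the mitochondrial J-domain protein, rose by 0.17 ± 0.04. Of the 19 co-chaperones 2 rose and 6 fell, led by BAG1, an HSP70 exchange factor (-0.74 ± 0.05, adjusted p = 5.22e-16), UNC45A, a myosin chaperone (-0.40 ± 0.09), CHORDC1 (-0.33 ± 0.06) and the HSP90 ATPase activator AHSA1 (-0.25 ± 0.04). CDC37, which brings kinases to HSP90, rose by 0.17 ± 0.06. HSPB8, a small heat-shock protein that works with BAG3, fell by 0.49 on the log2 scale.

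Of the 14 TRiC and prefoldin subunits, which fold actin and tubulin, 2 rose and 4 fell, where 18.5% and 18.4% of all genes did. The TRiC subunits CCT3 (-0.29 ± 0.05), CCT2 (-0.27 ± 0.04), TCP1 (-0.22 ± 0.05) and CCT6A (-0.10 ± 0.04) fell, while the prefoldin subunits PFDN2 (0.94 ± 0.08) and PFDN4 (0.39 ± 0.09) rose. The TRiC subunits CCT4, CCT5, CCT7 and CCT8 and the prefoldin subunits PFDN1, PFDN5, PFDN6 and VBP1 were not called. Of the 10 mitochondrial chaperones and proteases 3 rose and 3 fell. Of those that rose, GRPEL2, an exchange factor of mortalin, averaged 26.5 CPM at 500 µg/mL and 14.4 CPM at 20 µg/mL (0.88 ± 0.06). The matrix protease LONP1, which also rose, averaged 159 and 95.6 CPM (0.74 ± 0.05). The 3 that fell are not named here, so these examples do not describe the list as a whole. The mitochondrial HSP90 TRAP1 rose by 0.24 ± 0.05, beside the fall of HSPD1.

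Of 9 other genes that HSF1 is known to induce 3 rose and none fell, where 18.5% and 18.4% of all genes did: SQSTM1, an autophagy receptor that the oxidative stress factor NRF2 also induces (0.98 ± 0.06, adjusted p = 4.75e-17), ZFAND2A (0.41 ± 0.07) and the collagen chaperone SERPINH1 (0.27 ± 0.05). This list leaves out the 10 members, of which 8 fell, and the chaperone genes placed in the other lists. FKBP4 is counted both here and among the co-chaperones. The count therefore depends on how the lists were cut and does not describe HSF1-induced genes as a whole. Of 4 genes for heat-shock factors and the factor-binding protein HSBP1, HSF1 rose (0.20 ± 0.06, adjusted p = 0.00933) and HSF4 fell (-0.60 ± 0.17, adjusted p = 0.00453).

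**Figure D4:**
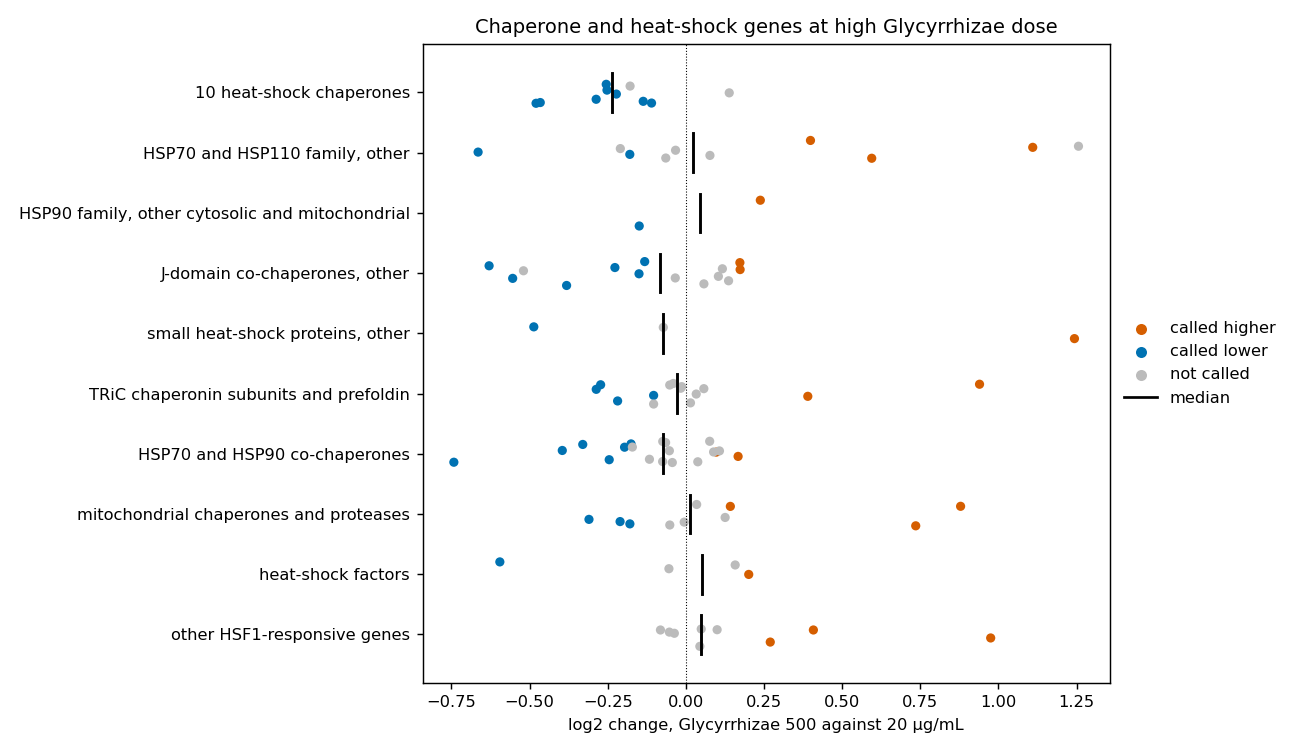
Log2 change between 500 and 20 µg/mL of Glycyrrhizae (horizontal axis) of the 10 chaperone genes (top row) and of the other chaperone and heat-shock genes by list, 1 point per gene with vertical scatter for legibility. Orange points were called higher, blue points lower and grey points were not called, and black bars are list medians. The 10 members have 8 blue and no orange points, and the other lists except the HSF1-responsive one hold points of both colours.

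In the other extracts few of the 84 genes were called between 20 and 500 µg/mL: 5 higher and 0 lower with Sibjeondaebo-tang (2.35% and 1.44% of all genes), 4 and 1 with Palmul-tang (1.29% and 0.794%), 2 and 0 with Poria (1.06% and 0.484%), and 0 in either direction with Atractylodis and Ginseng (0.208% and 1.2% called either way), by edgeR. At an unadjusted p under 0.05, 3 of the 84 passed with Atractylodis and 6 with Ginseng. Over all 17764 genes 1217 and 1713 did. DESeq2 called 0 of the 84 with each, while it called 6 with Sibjeondaebo-tang, 6 with Palmul-tang and 7 with Poria. PTGES3, the HSP90 co-chaperone p23, rose with Sibjeondaebo-tang (0.15 ± 0.03), Palmul-tang (0.19 ± 0.04) and Poria (0.16 ± 0.03), and by 0.10 ± 0.03 with Glycyrrhizae. HSP90AB1 rose with Sibjeondaebo-tang (0.17 ± 0.03, adjusted p = 0.000883) and Palmul-tang (0.15 ± 0.04, adjusted p = 0.027). In the Paeoniae library at 500 µg/mL 5 of the 84 were past 1.5-fold higher and 11 past it lower than at 20 µg/mL, where 9.61% and 9.65% of all genes were. HSPA13 had 68.3 CPM there, against 22.4 CPM at 20 µg/mL.

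Across the 25 group means of log2(CPM + 1), HSPA1A and HSPA1B had a Pearson r of 0.96, and HSP90AA1 had 0.94 with HSPA1A and 0.95 with HSPA1B. Without the 6 Glycyrrhizae and Paeoniae groups these were 0.87, 0.73 and 0.79 over 19 groups. CRYAB had an r of 0.04 with HSPA1A over 25 groups and -0.63 without the 6. The groups share their libraries' handling and scaling, and these values are descriptions. Among 10828 other genes with at least 5 CPM, those most like HSP90AA1 were HNRNPU (0.97), CHD4 (0.96) and HSP90AB1 (0.95). Those most like HSPA1A were CHD4, FTSJ3 and HNRNPU (0.95 each), and without the 6 groups these were 0.69, 0.65 and 0.79. For HSPH1 the most alike were CENPI (0.92), CHORDC1 (0.90) and YWHAG (0.90), with CHORDC1 at 0.85 without the 6 groups.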

How the data were processed

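Whole-transcriptome RNA of 60 libraries was analysed from the authors' deposited table of expected counts per gene, of which 210 of the 270 columns belonged to no library used here and were not read. Of the values above 0, 76.0% were whole within 1e-09. Per the submitters' processing notes, the tools were FastQC 0.11.9, Trim Galore 0.6.5, STAR 2.7.3a and RSEM 1.3.3 with build GRCh38. Neither the annotation release nor the counting's strand setting is stated in those notes or in the labels. RSEM divides reads that match several genes by estimation, which bears on HSPA1A and HSPA1B and on the pseudogenes of HSPD1, HSPE1 and HSPA8 (0.335%, 0.0860% and 0.0215% of the parent's counts).

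The deposited expected counts were rounded to whole numbers, filtered with edgeR's filterByExpr, scaled by TMM and fitted with edgeR 4.0.16 (R 4.3.3) as 1 mean per group over all 60 libraries, leaving 35 residual degrees of freedom (common BCV, the biological coefficient of variation, 5.59%). Comparisons used the quasi-likelihood test with Benjamini-Hochberg adjustment over 17764 genes at 0.05, and each SE was taken from the log2 change and its F statistic. Libraries held 18602484 to 29764358 counts, and CRYAB with 119 to 297 counts has the fewest of the members. The 51 pairs of libraries within groups differed by 2.72 to 40.3 times the counting noise (chi-square per degree of freedom), so none was counted as a duplicate and the spread between libraries exceeds what depth alone gives.

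By the naming rule all 10 members could be named in every comparison, and those not named singly are given by counts or ranges. Of the other lists, the text names from up to 4 called genes with the largest rise and up to 4 with the largest fall per list and comparison, at a mean of at least 5 CPM. Alternatives were DESeq2 1.42.0, its size factors in edgeR, no filter, only the compared groups, replicate blocks, HSPA1A and HSPA1B summed, and each library left out. The members, lists and tests were chosen with earlier results of these data known.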

Additional observations from a re-analysis of the deposited data

Results flagged for a closer look

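The differences between extracts in the change from 20 to 500 µg/mL were tested as interaction terms with edgeR, and 30 of them passed among the 10 genes. All 30 are Glycyrrhizae minus another extract and share the same Glycyrrhizae libraries. Against Ginseng the log2 differences were -0.44 for HSPA1A, -0.33 for HSPA8, -0.34 for HSPH1 and -0.34 for HSP90AA1. Against Sibjeondaebo-tang they were -0.63 for HSPA1A, -0.48 for HSPA1B, -0.25 for HSPA8, -0.30 for HSPH1, -0.34 for HSP90AA1 and -0.24 for HSPD1. Against Palmul-tang they were -0.48 for HSPA1A, -0.44 for HSPA1B, -0.37 for HSPA8, -0.35 for HSPH1, -0.43 for HSP90AA1 and -0.26 for HSPD1. Against Poria they were -0.59 for HSPA1A, -0.37 for HSPA1B, -0.32 for HSPA8, -0.36 for HSPH1, -0.39 for HSP90AA1, -0.21 for HSPD1 and -0.45 for HSPE1. Against Atractylodis they were -0.50 for HSPA1A, -0.35 for HSPA1B, -0.27 for HSPA8, -0.33 for HSPH1, -0.15 for DNAJB1, -0.29 for HSP90AA1 and -0.20 for HSPD1.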

How the results depend on the processing

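No called value changed direction under any alternative run, and a sign change of a value that was called in neither fit was counted as unchanged. For 500 against 20 µg/mL of Glycyrrhizae, HSPA1A, HSPA8, HSPH1 and HSP90AA1 were called in every alternative and without any 1 library, with highest adjusted p-values of 0.000221, 0.00678, 0.00143 and 0.00499, while HSPA1B was lost without low-dose replicate 1 (0.052). Of 30 called differences between extracts 22 held throughout, and of 56 calls against the vehicle 30 did. Without the filter on low counts, Sibjeondaebo-tang at 500 against 20 µg/mL had 2 calls in place of 0 and Atractylodis 1 in place of 0. Glycyrrhizae at 100 against 20 µg/mL had 1 in place of 0, and the difference between Poria and Atractylodis 1 in place of 0. At 500 against 20 µg/mL the called gene also changed without the filter, from HSP90AA1 to CRYAB with Palmul-tang and from HSP90AA1 to HSPE1 with Poria. With only the compared groups fitted, Palmul-tang at 500 against 20 µg/mL had 2 calls in place of 1 (also with DESeq2), Poria 0 in place of 1, and Atractylodis at 20 µg/mL against the vehicle 1 in place of 3. At 2-fold, 1 value of the Angelicae and Paeoniae series was past the limit in place of 4. The causes were not tested.

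Same-numbered replicates had weakly correlated deviations over all genes (r of -0.10 to 0.10, 1 of 17 over 0.1). Of 17 libraries, 10 matched their own number best. All Poria and Ginseng libraries did so, as did replicates 1 and 3 of Atractylodis and 1 and 2 of Glycyrrhizae. No Sibjeondaebo-tang or Palmul-tang library did. The 2 Palmul-tang correlations are equal by construction, since the deviations of 2 libraries from their mean mirror each other. How many matches unrelated numbering would give was not worked out, so no conclusion is drawn from the count of 10. HSPA1A was highest in replicate 1 at every dose of Glycyrrhizae and Ginseng, while HSPD1 was lowest there at 500 µg/mL. The main test did not pair the samples by number, and a shared effect of the number was modelled only in the block runs. With a replicate block within set codes, Sibjeondaebo-tang at 500 against 20 µg/mL had 2 calls and Palmul-tang 2, and with a replicate block shared by all groups Ginseng at 20 µg/mL against the vehicle had 4 calls in place of 2.

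Leaving out 1 library at a time gave 6 to 8 calls for Glycyrrhizae, 0 to 1 for Palmul-tang and 0 to 1 for Poria at 500 against 20 µg/mL. Against the vehicle at 500 µg/mL it gave 5 to 7 for Glycyrrhizae (8 with all libraries) and 4 to 6 for Poria (7 with all). At 20 µg/mL it gave 1 to 3 for Palmul-tang, 1 to 5 for Poria and 0 to 1 for Atractylodis (3 with all). CRYAB has the fewest counts of the 10 genes, so depth bears on its values most.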
